A study of Mus musculus with 1307 samples.

Results

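Of 1307 single cells from the mouse heart, 177 (13.5%, exact 95% binomial interval 11.7 to 15.5%) were valve-like fibroblasts without Coch, the gene for the secreted protein cochlin. The interval treats the cells pooled over mice as independent and does not measure the spread between mice, whose shares follow. These 177 cells were selected on measured values in CPM (a gene's counts per 1000000 counts in that cell). A cell was kept with Dcn at 500 CPM or more and Wif1, Chad, Prg4 and Angptl7 summing to 500 CPM or more, and with Myh11 under 500, Vtn under 500 and Coch under 20 CPM. Dcn encodes decorin, a fibroblast proteoglycan. Myh11 and Vtn mark smooth muscle cells and cardiac pericytes. These values are described here and support no test.

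Full-length single-cell RNA-seq (Smart-Seq2) was done on heart cells sorted into 384-well plates after enzymatic dissociation. Of the members, 176 came from 3 mice that carry the ACTA2GFP and CSPG4dsRED reporters together: 53 of 368 cells (14.4%) from mouse 1, 68 of 245 (27.8%) from mouse 2 and 55 of 336 (16.4%) from mouse 3. In those mice green and red fluorescence are driven by the Acta2 and Cspg4 genes, which mark smooth muscle cells and pericytes. Mice 1 and 2 are labelled male and mouse 3 female, and all are labelled 8 to 30 weeks old, with no exact age. No treatment is named. A C57BL/6 male without reporters gave 1 member among 347 cells (0.288%), and other mice, with 1 to 4 cells each, gave no member. Each of these 4 mice was sorted on a plate of its own, so mouse, sex and plate cannot be told apart, and what gate was sorted is not stated in the labels. All shares are therefore of sorted cells.

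Heart valves are built and maintained by valve interstitial cells, fibroblasts that lay down layers rich in collagen, proteoglycan and elastin. These cells share part of their gene programme with cartilage and tendon cells. Wnt ligands, BMP ligands and retinoic acid act in valve and skeletal development, and their secreted antagonists and breakdown enzymes set how far those signals reach. Interstitial fibroblasts of the heart muscle, which are marked by Pdgfra and Tcf21, make the collagen network between muscle fibres.

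Among the genes higher in members than in those interstitial fibroblasts was Cyp26a1, the enzyme that breaks down retinoic acid. The 250 bases before its RefSeq start are shown because 2 copies of the hexamer AGTTCA, read as TGAACT on this strand, stand 5 bases apart in them. That spacing is the classic form of a retinoic acid response element. The sequence is RefSeq's for GRCm38.p6, chr19:37697558-37697807, plus strand, with both hexamers in capitals.
Cyp26a1: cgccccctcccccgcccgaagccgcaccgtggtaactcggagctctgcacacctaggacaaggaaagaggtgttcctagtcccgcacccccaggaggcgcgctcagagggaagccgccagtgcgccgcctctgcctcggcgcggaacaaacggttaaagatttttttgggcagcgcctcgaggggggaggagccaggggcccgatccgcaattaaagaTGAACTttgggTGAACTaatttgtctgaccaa
Searched on either strand, AGTTCA lay in 3216 of 27025 promoters of that length (11.9%). The repeat with 5 bases between lay in 6 of 27025 (0.0222%). Tnfsf13b, another of those 6, was at 1.91, 4.35 and 10.04 CPM in the members of mice 1, 2 and 3. In their interstitial fibroblasts it was at 0, 8.35 and 7.30 CPM, so mouse 2 went the other way from mice 1 and 3. A match of letters is a description and shows no binding.

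The gate was passed in different ways by different members. Wif1, a secreted Wnt inhibitor, was at 1210.5, 949.9 and 480.2 CPM in the summed members of mice 1, 2 and 3, and in 41 of 53, 37 of 68 and 17 of 55 cells it was at 100 CPM or more. Prg4, the joint lubricant lubricin, was at 2380.1, 3356 and 1818 CPM and reached 100 CPM in 150 of the 176 cells. Angptl7, a secreted angiopoietin-like protein, was at 823, 1211 and 914 CPM and reached it in 89 cells. At this cut Prg4 was thus met in most members, a count that depends on the gate and, between genes, on transcript length. Wif1 was seen in a smaller share of the cells of mouse 3 than of mouse 1. Over all 177 members, 61 had 1 of the 4 gate genes at 100 CPM or more, 61 had 2, 33 had 3 and 22 had all 4. The most frequent pattern was Prg4 alone in 38 cells, followed by Wif1 with Prg4 in 36.

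Chad, the cartilage protein chondroadherin, was high in few members and low in the rest. It was at 799, 866 and 1026 CPM in the sums, yet 141 of the 177 members had less than 100 CPM, 3 had 100 to 1000 CPM, and 33 had between 1341 and 12827 CPM. The proposed markers Fmod and Thbs1, a collagen-binding proteoglycan and a matrix glycoprotein, were at 1637 to 4477 and 1010.4 to 2522 CPM in the 3 sums of members. In interstitial fibroblasts Fmod was at 215, 1180.5 and 108 CPM and Thbs1 at 126.6, 419.5 and 168 CPM. Fmod reached 100 CPM in 43 of 53, 57 of 68 and 23 of 55 members of mice 1, 2 and 3, and Thbs1 in 47, 49 and 26. The 5 markers Wif1, Chad, Prg4, Fmod and Thbs1 were thus present in the sums but not in each cell, least often in mouse 3 for Wif1, Fmod and Thbs1, and 3 of them are gate genes. The 10 fibroblast markers summed to 21240 to 31332 CPM in members and 21762 to 31816 CPM in interstitial fibroblasts. Of these, Dcn, Pdgfra and Tcf21 are rule genes, so their levels are a description. Dcn was at 4959, 6937 and 6577 CPM in members against 4307, 6135 and 6453 CPM. Pdgfra was lower in members of each mouse, at 84.0, 259 and 344 CPM against 279, 743 and 562 CPM. So was Tcf21, at 50.6, 91.6 and 183 CPM against 319, 342 and 374 CPM.

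**Figure D1:**
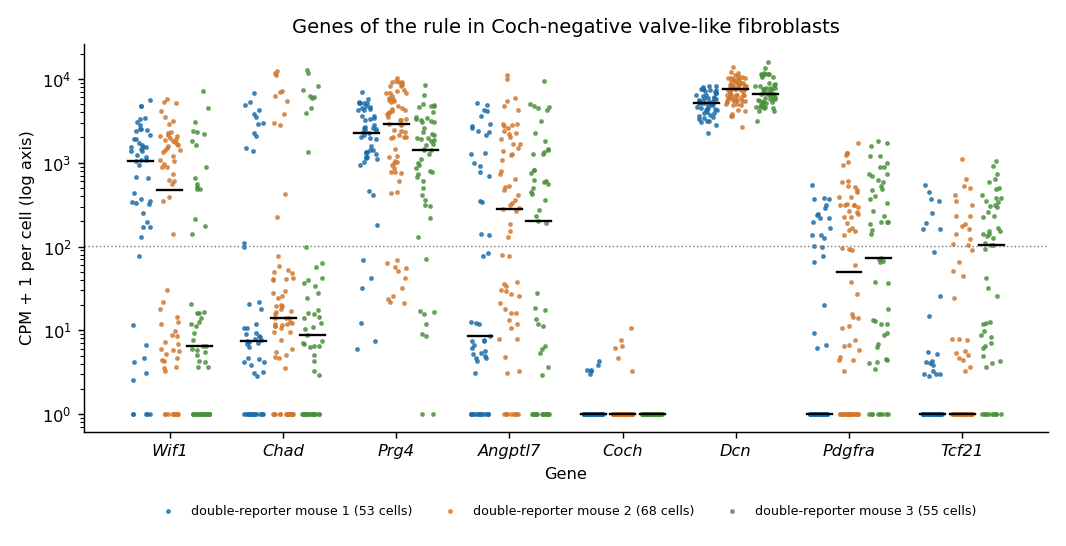
CPM plus 1 per cell, on a log axis, of the 4 gate genes, Coch, Dcn, Pdgfra and Tcf21 in the 176 members from the double-reporter mice, with 1 point per cell, a colour per mouse, a bar at each mouse's median and a dotted line at 100 CPM. Dcn is at 2239.7 CPM or more in every cell, Coch below 10 CPM, and Chad splits into many low cells and a group above 1000 CPM.

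Near the cuts, Coch left a wide gap. Of the members, 165 had no Coch count, 10 had 1 count and 2 had 2 counts, and the highest reached 9.66 CPM, whereas the lowest of the 12 cells left out by this cut had 122 CPM. The valve gate had no such gap. Its members closest to the cut had 502, 535 and 568 CPM, the nearest cells outside had 498, 494 and 481 CPM, and 26 members lay between 500 and 1000 CPM. The lowest Dcn in a member was 2239.7 CPM and the highest just outside was 71.1 CPM. Myh11 reached 382 CPM in 1 member and 66.1 CPM in the next, and the cells outside had 538 and 1941 CPM. Vtn did not exceed 36.5 CPM in a member.

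Members had 74704 to 667974 counts per cell, with a median of 298001, against a median of 274702 over the series. Each cell is its own library, so no cell barcodes are shared. Of the markers of other cell types in the summed members, endothelial genes summed to 61.1 to 75.8 CPM, macrophage genes to 6.11 to 22.6 CPM and Schwann cell genes to 122 to 221 CPM. The 6 mesothelial genes summed to at most 5.79 CPM in members. Cardiomyocyte genes summed to 94.6 to 108 CPM in members and to 81.7 to 162 CPM in interstitial fibroblasts. Scrublet called 1 member a doublet. With the cells above 500 CPM for endothelial, macrophage or Schwann cell markers, 21 members were of mixed identity. Smooth muscle genes summed to 1038, 651 and 466 CPM in members and to 2273, 1190.1 and 190.5 CPM in interstitial fibroblasts of the same mice. A set of 6 endocardial genes summed to 601 to 613 CPM in members, and to 86.7 to 131 CPM in interstitial fibroblasts. In members 537 to 564 CPM of that was Cytl1, a cytokine-like secreted protein, and 26.8 to 31.0 CPM was Hapln1, which is also a cartilage gene. Of the other 4 genes, Plvap was at 19.2 to 34.3 CPM in members and 30.0 to 46.4 CPM in interstitial fibroblasts, Npr3 and Vwf were at most 1.15 and 0.69 CPM in members, and Nrg1 had no count. Pericyte genes summed to 436, 431 and 233 CPM in members and to 1374, 569 and 214 CPM in interstitial fibroblasts, and 18, 20 and 11 members had more than 500 CPM of them. Of these, Rgs5 was at 256, 238 and 65.6 CPM in members and at 602, 20.6 and 16.9 CPM in interstitial fibroblasts, so mouse 1 went the other way from mice 2 and 3. The part of smooth muscle, pericyte and endocardial transcripts in the differences given here was not tested.

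Interstitial fibroblasts were chosen with the same Dcn, Myh11 and Vtn cuts, a valve gate sum under 500 CPM, and Pdgfra plus Tcf21 at 300 CPM or more. There were 205 of them, 15 in mouse 1, 33 in mouse 2, 155 in mouse 3 and 2 in the C57BL/6 mouse. Counts were summed over each class in each double-reporter mouse, which gave 20925344, 18830740 and 14346126 counts for members and 5664992, 8986895 and 38639320 for interstitial fibroblasts. The test was edgeR's quasi-likelihood test with the mouse as a block. In these sums, a higher level can come from more cells with a gene or from more RNA per cell, which is why shares of cells are given for some genes. Shares pooled over the mice weigh them differently in the 2 classes, since most interstitial fibroblasts came from mouse 3. The classes were chosen on expression in the same cells, so other genes that vary with the gate genes differ between the classes too.

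Relative to interstitial fibroblasts of the same mice, the members had higher Cyp26a1, Cilp2, Frzb and Prelp, and edgeR called no gene lower. Of 15711 genes tested outside the rules and proposed markers, these 4 (0.0255%) had an adjusted p under 0.05 by edgeR, with 3 residual degrees of freedom, and 670 had an unadjusted p under 0.05. DESeq2 on the same sums called 306 genes (2.2% of the 13882 given an adjusted p), 226 higher and 80 lower, among them the same 4. Without regard to a test, all 3 member sums lay above all 3 interstitial sums for 1108 genes (7.05%) and below them for 771 (4.91%).

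Cyp26a1 (ENSMUSG00000024987, GRCm38 chr19:37697798-37701536, plus strand) was at 274, 205 and 95.6 CPM in the members of mice 1, 2 and 3. It was at 1.41, 0.89 and 0.336 CPM in their interstitial fibroblasts, so the groups were far apart in each mouse, and mouse 3 was lowest in either class. The log2 difference was 7.85 (SE 0.43, edgeR adjusted p = 0.00743). The interstitial levels rest on few reads, so the size of that difference is less certain than the SE, taken from the F statistic, makes it look. After each cell was thinned to 50000 counts, 51 of 176 members (29.0%) and 1 interstitial fibroblast (0.493%) had 100 CPM or more. In mice 1, 2 and 3 these were 19 of 53, 22 of 68 and 10 of 55 members. Among interstitial fibroblasts they were 1 of 15, 0 of 33 and 0 of 155. Cyp26a1 was thus carried by a minority of the members.

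Cilp2 (ENSMUSG00000044006, GRCm38 chr8:69880369-69887687, minus strand) was at 91.9, 97.5 and 153 CPM in members and at 0.353, 0.445 and 0.492 CPM in interstitial fibroblasts. It encodes a cartilage intermediate layer protein. The log2 difference was 8.01 (SE 0.57, edgeR adjusted p = 0.021). Here too the interstitial levels rest on very few reads, so the size of that difference is less certain than its SE. After thinning, 31 of 176 members (17.6%) and no interstitial fibroblast (0 cells, which allows up to 1.48%) reached 100 CPM.

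Frzb (ENSMUSG00000027004, GRCm38 chr2:80411970-80447625, minus strand), a secreted Wnt antagonist of the frizzled-related family, was at 1398.5, 1233.5 and 882 CPM in members and at 407, 403 and 309 CPM in interstitial fibroblasts. The log2 difference was 1.63 (SE 0.14, edgeR adjusted p = 0.039). Unlike Cyp26a1, it was widespread in either class, with 151 of 176 members (85.8%) and 109 interstitial fibroblasts (53.7%) at 100 CPM or more after thinning.

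Prelp (ENSMUSG00000041577, GRCm38 chr1:133910304-133921414, minus strand), a proteoglycan of the leucine-rich family that binds collagen, was at 5689.8, 7716 and 4581 CPM in members and at 2267, 2496 and 2076 CPM in interstitial fibroblasts. The log2 difference was 1.35 (SE 0.12, edgeR adjusted p = 0.039). Its gene overlaps Gm15851 on the other strand, and without strand the reads of such a pair cannot be told apart. 

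All 4 genes kept their direction under the 19 alternatives run. Cyp26a1 was called under 17 of them, Cilp2 under 14, Frzb under 9 and Prelp under 8. These tallies include settings whose outcome was fixed. At least 4 cells per sum and Coch under 50 CPM left the sums as in the main fit. At least 15 cells per sum repeated the fit with only the 2 classes compared. edgeR made 0 calls without mouse 2 (649 genes at an unadjusted p under 0.05) and 0 without mouse 3 (436 genes). With cells of mixed identity left out, it called Cyp26a1 alone, at a log2 difference of 8.31.

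**Figure D2:**
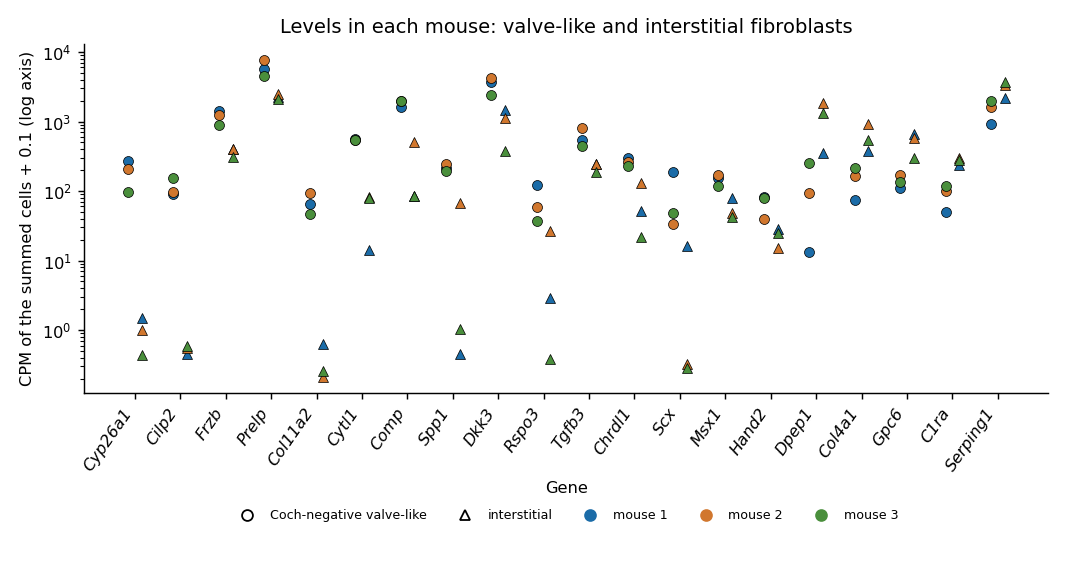
CPM of the summed cells plus 0.1, on a log axis, of the 4 called genes and 16 further genes, with circles for members, triangles for interstitial fibroblasts and a colour per mouse. Cyp26a1, Cilp2, Frzb and Prelp are higher in the members of each mouse, and Dpep1 and Serping1 are lower.

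Among cartilage and tendon-like matrix genes, edgeR called Cilp2 and Prelp higher in members. DESeq2 called 11 genes of this list higher and 1 lower, where over all 13882 genes it called 226 higher and 80 lower. Of 29 genes of that list outside the rules that are in the table, 26 passed the filter on low counts, and the median log2 difference was 2.55 against 0.07 over all genes. A gene of a list is counted as above where its 3 member sums all exceed the 3 interstitial sums, and as below where they all lie under them. In this list 12 were above and 2 below, where all genes give 7.05% above and 4.91% below. The list was drawn up with earlier results of these data known.

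The following genes were picked after their values were seen, and edgeR called none of them. Col11a2, a fibril collagen chain of cartilage, was at 64.0, 92.1 and 47.1 CPM in members and at most 0.53 CPM in interstitial fibroblasts (log2 difference 8.04, SE 0.83, edgeR adjusted p = 0.0939). Its interstitial levels also rest on very few reads. Hapln1, which links aggrecan to hyaluronan, was at 26.8, 31.0 and 29.3 CPM against at most 0.177 CPM. Cytl1 was at 564, 548 and 537 CPM against 13.9, 82.1 and 78.6 CPM. These 3 did not overlap between the classes. Comp, a cartilage oligomeric protein that organises collagen, was at 1621, 1981 and 1977 CPM against 86.0, 513 and 84.2 CPM, and reached 100 CPM in 104 of 176 members (59.1%) and 27 interstitial fibroblasts (13.3%) after thinning. Acan, the cartilage proteoglycan aggrecan, was at 8.46, 19.4 and 11.99 CPM in members, from 11 of 176 cells at 100 CPM or more, and had 0, 0 and 0.0259 CPM in interstitial fibroblasts. Col2a1, the main cartilage collagen, reached 100 CPM in 4 of 176 members. Thbs3, a thrombospondin on the same list, went the other way and was at 62.2, 51.0 and 109 CPM in members and 198, 194 and 185 CPM in interstitial fibroblasts.

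Among 33 Wnt pathway genes that passed the filter, 7 were above and 0 below (7.05% and 4.91% of all genes), with a median log2 difference of 0.86. edgeR called Frzb and no other gene of the list. The antagonist Dkk3 was at 3734, 4176 and 2410.3 CPM in members against 1450, 1121 and 379 CPM. Rspo3, a secreted amplifier of Wnt signalling, was at 122, 58.8 and 37.4 CPM against 2.82, 26.7 and 0.285 CPM. edgeR called neither. Of 35 BMP and TGF-beta genes, 5 were above and 2 below, the latter near the share of all genes, and edgeR called 0. Among them the ligand Tgfb3 was at 534, 815 and 449.7 CPM against 245, 246 and 185 CPM, and the BMP antagonist Chrdl1 at 299, 257 and 226 CPM against 51.0, 131 and 21.998 CPM.

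Of 46 valve and skeletal transcription factors, 9 were above and 2 below (7.05% and 4.91% of all genes), and edgeR called 0. DESeq2 called 7 of them higher, where it called 226 of all 13882 genes higher. Scx, the tendon factor scleraxis, was at 186, 33.1 and 48.3 CPM in members against 16.2, 0.223 and 0.181 CPM. It differed among the mice, with 27 of 53 members of mouse 1, 8 of 68 of mouse 2 and 6 of 55 of mouse 3 at 100 CPM or more after thinning. Msx1, a homeobox factor of the valve cushions, was at 153, 169 and 116 CPM against 79.1, 48.1 and 42.9 CPM. Sox9, the cartilage factor, was at 367, 309 and 529.97 CPM against 280.3, 202 and 313 CPM, and its groups overlapped. The mineralisation list had 5 of 17 genes above and 0 below, and edgeR called 0. In it Spp1, the secreted phosphoprotein osteopontin, was at 213, 248 and 196 CPM in members against 0.353, 67.99 and 0.932 CPM, from 32 of 176 members at 100 CPM or more.

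The lists with the lowest medians were the complement and chemokine list, where 6 of 29 genes were below and 1 above (median log2 difference -0.97), and the interstitial fibroblast list, where 4 of 29 were below and 0 above (median -0.77). Over all genes 4.91% were below and 7.05% above. DESeq2 called 6 and 4 genes of these lists lower, where it called 80 of all 13882 genes lower, and edgeR called 0. Serping1, the C1 complement inhibitor, was at 909, 1599 and 1976 CPM in members against 2183, 3339 and 3692 CPM (log2 difference -1.08, SE 0.12, edgeR adjusted p = 0.0957). Dpep1, a membrane dipeptidase, was at 13.1, 92.5 and 257 CPM against 356, 1835 and 1325 CPM. Smoc2, a secreted calcium-binding matrix protein, was at 22.8, 501 and 1057 CPM against 58.1, 1432 and 2614 CPM, so it was lower in members of each mouse although the mice overlapped. Pi16, another fibroblast gene of this list, was at 277, 843 and 1513 CPM against 58.6, 1106 and 2044 CPM and was not lower in mouse 1.

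The other matrix lists are to be read against 7.05% above and 4.91% below over all genes, and edgeR called no gene of them but Prelp. Of 22 collagen chains, 2 were above and 6 below, among the latter Col3a1 at 1259.8, 2432 and 2355.5 CPM in members against 2941, 3761 and 2440 CPM. Col1a1 and Col1a2, the chains of type I collagen, had log2 differences of 0.16 and 0.04 (SE 0.12 and 0.10). Of 22 elastic fibre genes 3 were above and 3 below, and of 21 proteoglycan genes 3 were above and 2 below, few genes either way. The proteases and their inhibitors had 2 of 28 above and 4 below, and the integrins and adhesion genes 7 of 28 above and 3 below, among the former the cadherin Cdh11 at 243, 331 and 186 CPM against 45.0, 123 and 27.5 CPM. The retinoic acid and lipid list, which holds Cyp26a1, had 5 of 27 above and 4 below, and the guidance and growth factor list 4 of 38 above and 3 below. The 31 abundant list genes that were not called had log2 differences from -1.08 to 1.95, and 23 of them lay within 0.5 of no difference. Among those 31, Bgn, the proteoglycan biglycan, was at 4868, 8117 and 5915 CPM in members against 4480, 7436 and 5449 CPM.

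Of 22 contractile genes, 0 were above and 3 below, where all genes give 7.05% and 4.91%, and edgeR called 0. Acta2, the smooth muscle actin that drives the green reporter, was at 739, 488 and 329 CPM in members and at 1564, 852 and 168 CPM in interstitial fibroblasts, with mouse 3 going the other way. Cspg4, which drives the red reporter, was at 178, 99.2 and 67.8 CPM against 63.5, 26.04 and 21.9 CPM. Because the gate may use these colours, the part of the sort in these differences was not tested. Of the remaining lists, glycolysis genes had 4 of 24 above and 3 below, immediate early genes 1 of 27 above and 3 below, and imprinted genes 1 of 12 above and 0 below.

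**Figure D3:**
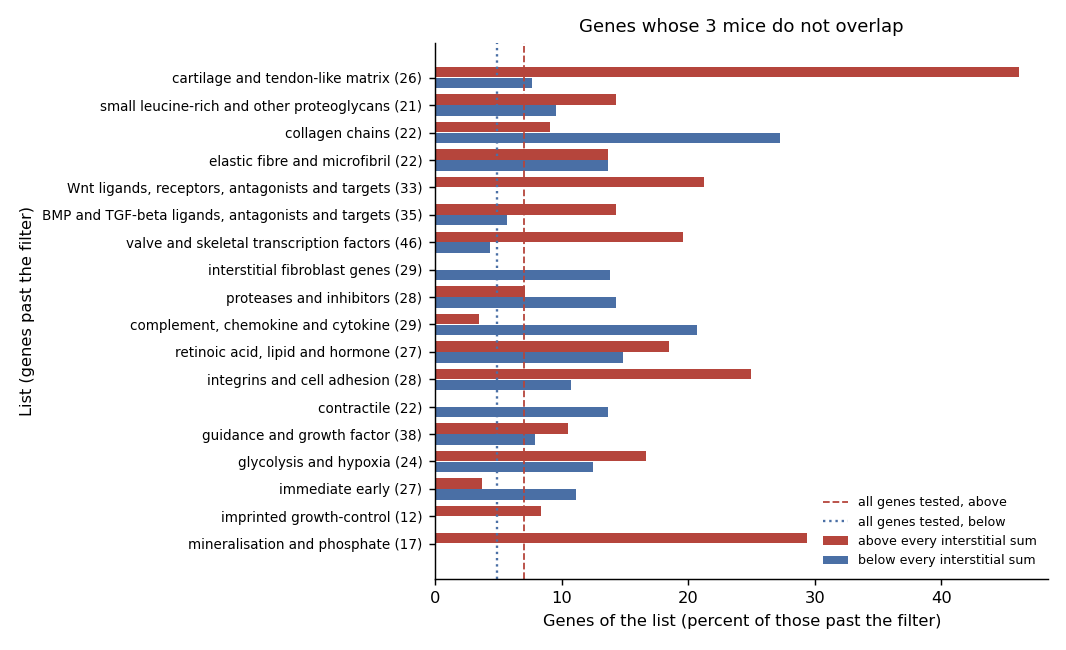
Percent of the genes past the filter in each of 18 lists whose 3 member sums all lie above (red) or below (blue) the 3 interstitial sums, with the number of such genes beside each name and vertical lines at the values for all genes tested, 7.05% above (dashed) and 4.91% below (dotted). The cartilage and tendon-like list has 12 of 26 genes above and 2 below.

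Within the members, cells with Chad at 100 CPM or more were compared with the other members of their mouse. This division was drawn after the bimodal Chad values were seen, so it carries no test. There were 13, 12 and 10 such cells in mice 1, 2 and 3, and 1 in the C57BL/6 mouse. Of 15711 genes, the sums of Chad-high members lay above all 3 sums of the other members for 439 (2.79%) and below for 1810 (11.5%). Only 10 to 13 cells enter each Chad-high sum against 40 to 56 in the other sums, and median counts per cell were 244413.5 to 435545 against 261487 to 398218.5.

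Several cartilage matrix genes, picked after their values were seen, were higher in the Chad-high members of each mouse. Comp was at 2797, 4789 and 5418 CPM in them and at 1224, 1382 and 1291 CPM in the other members. Cilp2, 1 of the 4 genes called above, was at 235, 446 and 661 CPM against 43.6, 23.1 and 51.4 CPM. Clec3a, a cartilage lectin, was at 163, 340.3 and 334 CPM against 22.3, 15.1 and 2.76 CPM. Cilp2 in the other members was still above its highest interstitial sum, 0.492 CPM. Cytl1 was at 1038, 1055 and 1258 CPM against 403, 439.6 and 393 CPM. Cyp26a1 was at 405, 496 and 384 CPM against 230.2, 142 and 38.05 CPM. Spp1 was at 672, 581 and 1153 CPM against 57.5, 176 and 5.44 CPM. Trpv4, a calcium-permeable channel, was at 129, 58.3 and 80.0 CPM against 21.2, 0.0644 and 0.251 CPM. The Wnt antagonist Frzb was at 1661, 1427 and 1995 CPM against 1309.9, 1192 and 660.2 CPM, a smaller gap. Prelp was at 6417, 11449 and 9767 CPM against 5444, 6919 and 3546 CPM. It was thus higher in Chad-high members of each mouse although the mice overlapped.

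Other genes stood higher in the remaining members. Heyl, a Notch target, was at 271, 542 and 242 CPM in them and at 27.2, 31.4 and 63.7 CPM in Chad-high members. Adamts5, a protease that cuts aggrecan, was at 106, 91.8 and 196 CPM against 16.8, 24.8 and 49.0 CPM. Nrp1, a receptor for semaphorins and VEGF, was at 234, 185 and 171 CPM against 66.7, 9.06 and 33.9 CPM. None of these 3 overlapped.

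**Figure D4:**
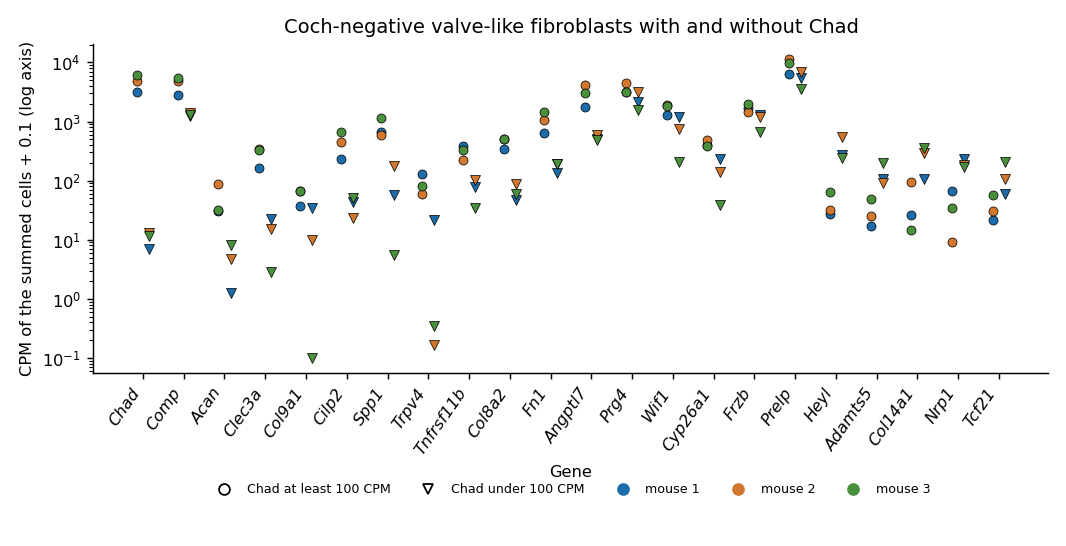
CPM of the summed cells plus 0.1, on a log axis, with circles for members at 100 CPM of Chad or more, triangles for the other members and a colour per mouse. Comp, Cilp2 and Clec3a are higher in the Chad-high cells of each mouse, and Heyl, Adamts5 and Nrp1 are lower.

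Members were also divided by whether they reached the interstitial gate. Of 177 members, 58 also had Pdgfra plus Tcf21 at 300 CPM or more, 9, 22 and 26 in mice 1, 2 and 3 and 1 in the C57BL/6 mouse, and 4 of these were Chad-high. Their sums lay above those of the other members for 582 genes (3.70%) and below for 1161 (7.39%), again with no test. Fbln2, a fibulin of the matrix, was at 909, 1245 and 1671 CPM in them against 230.35, 318 and 428 CPM. Entpd2, an ectonucleotidase, was at 442, 358 and 799 CPM against 71.2, 151 and 221 CPM. The secreted chaperone Clu was lower, at 831, 621 and 139 CPM against 1939.5, 1905 and 1807 CPM, as was the gate gene Wif1, at 349, 478 and 31.8 CPM against 1390, 1203 and 925 CPM. With these 58 cells left out, Cyp26a1, Cilp2, Frzb and Prelp had log2 differences of 7.87, 8.25, 1.86 and 1.63 from interstitial fibroblasts.

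Only 12 cells passed the same gates with Coch at 20 CPM or more, 7 in mouse 1, 5 in mouse 2 and 0 of 336 in mouse 3 (a count of 0 there allows up to 0.893%). Their sums held 3510058 and 1341909 counts, fewer than the members' sums. Chad did not reach 100 CPM in any of the 12 and was at 3.42 and 17.1 CPM in their sums, a difference in a gate gene that is given as a description. Against Coch-positive cells, edgeR called 1 gene (0.00636%) and had 1578 at an unadjusted p under 0.05, and DESeq2 called 1427 (9.08%), 1268 higher in members and 159 lower. Member sums lay above both Coch-positive sums for 4157 genes (26.5%) and below for 1333 (8.48%), and the median log2 difference over all genes was 0.56. The differences are to be read against that shift, whose relation to the small number of Coch-positive cells was not tested.

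The called gene was Smoc2 (ENSMUSG00000023886, GRCm38 chr17:14279506-14404790, plus strand). It was at 22.8, 501 and 1057 CPM in members and at 0.285 and 4.47 CPM in Coch-positive cells of mice 1 and 2 (log2 difference 6.76, SE 0.27, edgeR adjusted p = 0.00142). Both Coch-positive levels rest on very few reads, in sums of 3510058 and 1341909 counts. The size of the log2 difference is therefore less certain than that SE, taken from the F statistic, makes it look. At 100 CPM or more after thinning Smoc2 was found in 4 of 53 members (7.55%) of mouse 1, 18 of 68 (26.5%) of mouse 2 and 25 of 55 (45.5%) of mouse 3. It was found in 0 of the 12 Coch-positive cells, which allows up to 25% and comes from mice 1 and 2 only, so at this number of cells a difference in shares was not detectable. Its level in members was far lower in mouse 1 than in mice 2 and 3, and the gene overlaps 4930474M22Rik on the other strand. When the 12 members with 1 or 2 Coch counts were moved to the Coch-positive class, the log2 difference was 3.79 and the call was lost (edgeR adjusted p = 0.402). The call was also lost with the valve gate at 250 CPM (adjusted p = 0.124), with mouse 2 left out (0.315), without the mouse block (0.189) and with the members that reach the interstitial gate left out (0.107), all by edgeR.

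Several genes picked after their values were seen were far apart from the Coch-positive cells without a call by edgeR, though DESeq2 called Cytl1, Spry1, Igfbp3 and Igf1. Cytl1 was at 564, 548 and 537 CPM in members and at 1.42 and 2.98 CPM in Coch-positive cells (log2 difference 8.00, SE 0.89, edgeR adjusted p = 0.112), and its log2 difference was 0.53 with those 12 cells moved. Spry1, an inhibitor of growth factor signalling, was at 36.1, 103 and 108 CPM against 1.42 and 3.73 CPM (edgeR adjusted p = 0.081). The Coch-positive levels of Cytl1 and Spry1 also rest on very few reads. Igfbp3, a carrier of insulin-like growth factors, was at 177, 95.6 and 422 CPM against 5.41 and 2.98 CPM. Igf1, the growth factor it carries, went the other way, at 678, 706 and 388 CPM in members against 1323 and 2307 CPM (log2 difference -1.29, SE 0.21, edgeR adjusted p = 0.283). Cyp26a1 and Cilp2 were also found in Coch-positive cells, with 3 and 4 of the 12 at 100 CPM or more after thinning. Frzb and Prelp reached that level in 12 of the 12. The 4 genes called against interstitial fibroblasts were thus not particular to the members. Hapln1 was at 121 and 267 CPM and Col11a2 at 91.7 and 198 CPM in the Coch-positive sums, higher than in members of the same mice. Col2a1 had 0 CPM in both Coch-positive sums. Only 4 of 176 members reached 100 CPM of it after thinning, so 12 cells are too few to show a direction. Comp was at 1429 and 25.3 CPM in the Coch-positive sums and so differed between the mice.

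**Figure D5:**
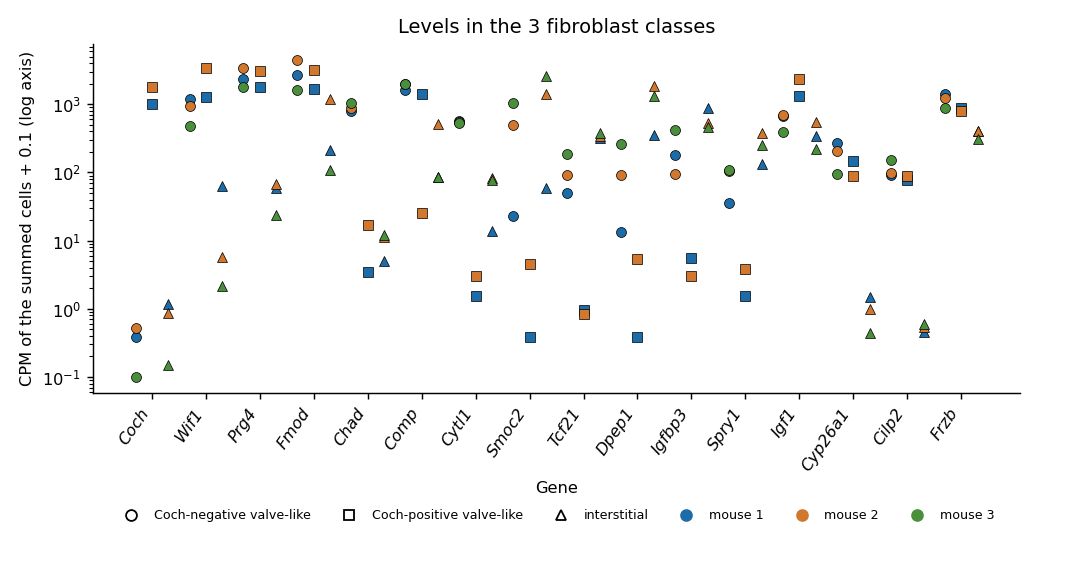
CPM of the summed cells plus 0.1, on a log axis, in members (circles), Coch-positive cells (squares, 2 mice) and interstitial fibroblasts (triangles), with a colour per mouse. Smoc2 and Cytl1 are below 5 CPM in both Coch-positive sums, and Cyp26a1 is below 2 CPM in the 3 interstitial sums.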

How the data were processed

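Smart-Seq2 libraries of 1307 heart cells, each its own sample, were deposited by the authors as 1 table of raw read counts for 46517 genes, of which 46005 matched a symbol (GENCODE M21). The submitters' processing notes list featureCounts, Subread, Bowtie2, Bowtie and bcl2fastq, and the builds mm10 and GRCm38. For their versions, the annotation counted and the use of strand, nothing is given in the sources used here. These deposited counts have no molecular identifiers, so PCR copies count as reads, and intervals and floors cover counting error only. CPM from full-length reads also depends on transcript length, so levels are compared between cells and not between genes.

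Cells were kept with 10000 or more counts and 500 or more genes, and the mouse, strain and sex were taken from the labels. The labels name mice but do not say more about how far they are independent. For each class, raw counts were added up within a mouse, with at least 8 cells, or 4 where fewer than 2 mice reached that. Sums of the 3 classes entered 1 edgeR 4.0.16 quasi-likelihood fit (R 4.3.3, TMM, filterByExpr, Benjamini-Hochberg over all genes tested, threshold 0.05) with the mouse as a block, since the classes come from the same animals. Deviations of members and interstitial fibroblasts of the same mouse correlated at 0.15, 0.16 and 0.22 over 15723 genes. A standard error is the log2 difference divided by the square root of F. DESeq2 1.42.0 was an alternative, and the fit was tested on simulated data. Doublets were called within each mouse of 100 or more cells with Scrublet (scanpy 1.11.5), and doublets stayed in the main sums.

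The members and gene lists were chosen with earlier results of these data known. Named genes were the called genes with the largest differences (up to 12 each way), up to 2 called and the 2 most abundant genes of each of 18 lists, and the rule genes. Other genes are said in the text to have been picked after their values were seen, which also holds for those named in the 2 divisions of the members and beside the lists. The Coch-negative cell of the C57BL/6 mouse entered no test. Of the abundant genes, those not named in the text are given by their number and range, and 1 result is not reported here.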

Additional observations from a re-analysis of the deposited data

How the results depend on the processing

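Against interstitial fibroblasts, edgeR called 4 genes. The count was 306 with DESeq2, 21 with no filter on low counts, 26 with each cell thinned to 50000 counts, 8 with the valve gate at 250 CPM, 1 with cells of mixed identity left out and 8 with the members that reach the interstitial gate left out. It was 3 to 6 under the other settings, and 0 to 4 when a mouse was left out. With no replicate block for the mouse it was 4, 2 of them shared, and Frzb (adjusted p = 0.15) and Prelp (0.392) were not called by edgeR. Against Coch-positive cells edgeR called 1 gene. The count was 1427 with DESeq2, 17 with no filter on low counts, 2 with no replicate block (0 shared), 3 with only the 2 classes in the fit, 0 with Coch at 0 (1121 genes at an unadjusted p under 0.05), 0 with the valve gate at 250 CPM (1277) and 0 with the members that reach the interstitial gate left out (1321). It ran from 0 to 98 when a mouse was left out: 98 without mouse 1, 0 without mouse 2 (1623 genes at an unadjusted p under 0.05) and 1 without mouse 3. Without mouse 1 or 2 the lone Coch-positive sum is assumed to vary like the other classes. The cause of these shifts was not tested. Members numbered 205 with the valve gate at 250 CPM and 151 at 1000 CPM.

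Small log2 differences of genes that were not called changed sign against interstitial fibroblasts. When a mouse was left out, Acta2 ran from -0.95 to 0.080, Aldoa from -0.058 to 0.15, Cd34 from -0.31 to 0.10, Col1a2 from -0.052 to 0.15, Gsn from -0.085 to 0.059, Id3 from -0.46 to 0.13, Pi16 from -0.42 to 0.90 and Sgce from -0.18 to 0.18. An interstitial cut of 600 CPM gave -0.065 for Aldoa, -0.038 for Fbln1, 0.017 for Id3 and -0.63 for Pi16. Thinning gave 0.016 for Cd34 and 0.00044 for Sgce. A valve gate of 250 CPM gave 0.051 for Cd34 and 0.010 for Sgce, and one of 1000 CPM gave -0.12 for Pi16. Leaving out mixed cells gave 0.0010 for Cd34 and 0.0096 for Gsn, and no filter gave 0.0083 for Gsn and 0.037 for Sgce. No replicate block gave -0.0066 for Col1a2 and -0.31 for Pi16, the members left out at the interstitial gate -0.69 for Pi16, and 2 classes or at least 15 cells 0.0024 for Sgce.

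Adding the C57BL/6 mouse was not run, since it held 1 member and 2 interstitial fibroblasts, and at least 15 cells per sum left no Coch-positive sum. The 7 and 5 Coch-positive cells limit what that comparison can show.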
